A study of Mus musculus with 232 samples.

Results

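The 8 genes described here are brakes on the cell cycle: Cdkn1a, Cdkn1b, Rb1, Rbl1, Rbl2, Lats1, Lats2 and Wee1. They were taken as a named list of inhibitors of the step from G1 to S phase, by name and not by a threshold on their values, though with earlier results of these data known. The files held 42493 genes, and all 8 were among the 11186 genes with a mean of at least 5 counts per cell. Counts were followed in 182 single mouse embryonic stem cells (ESCs) of 4 conditions. The mock condition held 60 mock-transfected Dgcr8-/- cells, which lack a protein needed to process most miRNAs. The miR-294 condition held 58 and the let-7 condition 48 Dgcr8-/- cells transfected with a mimic of that miRNA, and the WT condition held 16 V6.5 cells of wild-type genotype. All cells were grown with serum, LIF and inhibitors of MEK and GSK3 (PD0325901 and CHIR99021) and were captured 24 h after transfection, when each condition was loaded on a single Fluidigm C1 chip. The let-7 mimic is let-7i by its sample titles, let-7b by the design text and let-7c by the methods, and is called let-7 here.

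The cell cycle is held back in G1 by proteins that keep cyclin-dependent kinases (Cdks) inactive or keep E2F transcription factors silent. Cdkn1a (p21) and Cdkn1b (p27) bind and inhibit cyclin-Cdk complexes, and Cdkn1a is a classic transcriptional target of p53. The pocket proteins Rb1, Rbl1 (p107) and Rbl2 (p130) bind E2F factors until Cdks phosphorylate them. Lats1 and Lats2 are kinases of the Hippo pathway that phosphorylate the co-activators Yap1 and Wwtr1, and Wee1 inhibits Cdk1 by phosphorylation, which makes it chiefly a brake on entry into mitosis. ESCs have a short G1, and miR-294 is one of a family of miRNAs that is abundant in them and is known for promoting the passage from G1 to S. A miRNA lowers an mRNA mostly by pairing its seed, bases 2 to 8 from its 5′ end, with the 3′UTR.

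The sequences of the mimics' miRNAs are shown because the seed decides which 3′UTRs they can pair with. They are RefSeq mature sequences (GRCm38.p6), 5′ to 3′, with the seed in capitals. The table used held 5 mature miRNAs with the miR-294 seed, and let-7i, let-7b and let-7c, the candidates for the let-7 mimic, share 1 seed.
mmu-miR-294-3p: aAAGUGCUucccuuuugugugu
mmu-miR-291a-3p: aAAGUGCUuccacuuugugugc
mmu-miR-295-3p: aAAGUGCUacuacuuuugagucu
mmu-miR-302b-3p: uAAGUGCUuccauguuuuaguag
mmu-miR-302d-3p: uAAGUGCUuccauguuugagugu
mmu-let-7i-5p: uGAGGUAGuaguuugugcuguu
mmu-let-7b-5p: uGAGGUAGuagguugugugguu
mmu-let-7c-5p: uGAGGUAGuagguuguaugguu

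The 3′UTRs of the members were searched on the sense strand for the complement of the miR-294 seed, AGCACTT, or for its last 6 letters followed by A, GCACTTA. The overlap of both, AGCACTTA, is called an 8-letter match and counted once. The same was done for let-7 with CTACCTC and TACCTCA. A single transcript per gene was used (Gencode M21, GRCm38). Of the 8 members, 6 held at least 1 miR-294 match, and Cdkn1b and Rb1 held none. The matches are printed 5′ to 3′ along the mRNA with the matched letters in capitals, since they show where miR-294 could pair with the members.
Cdkn1a, chr17:29099816-29099838, plus strand: tcagacctgaatAGCACTTtgga
Cdkn1a, chr17:29100488-29100511, plus strand: cgtgggtgtcaaAGCACTTAgtgg
Rbl1, chr2:157147474-157147496, minus strand: ttgcctgatcaaAGCACTTttgg
Rbl2, chr8:91123818-91123841, plus strand: atttttcaataaAGCACTTAtaaa
Lats1, chr10:7714144-7714166, plus strand: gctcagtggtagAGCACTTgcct
Lats2, chr14:57691082-57691105, minus strand: cagtatggaaagAGCACTTAtttt
Lats2, chr14:57690984-57691006, minus strand: gttgtatctgatAGCACTTgtcc
Wee1, chr7:110142593-110142615, plus strand: tatccaactgggAGCACTTtagg

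Cdkn1a and Lats2 each held 2 matches, 1 of them of 8 letters, and Rbl2 held a single 8-letter match. Among tested genes with a 3′UTR of similar length (within 20% of that of the member), the share with a miR-294 match was 19.5% for Cdkn1a, 21.4% for Rbl2 and 22.4% for Lats2. It was 22.4% for Rbl1, 17.1% for Wee1 and 42.4% for Lats1, whose 3′UTR is 3450 bases long. The 3′UTR of Cdkn1b was as long, at 3439 bases, and 42.3% of similar ones held a match. Over all 10342 tested genes with a 3′UTR the share was 19.9%. For let-7, 1 member held a match, Rb1, in the form TACCTCA. A match is a description of the letters only.

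**Figure D1:**
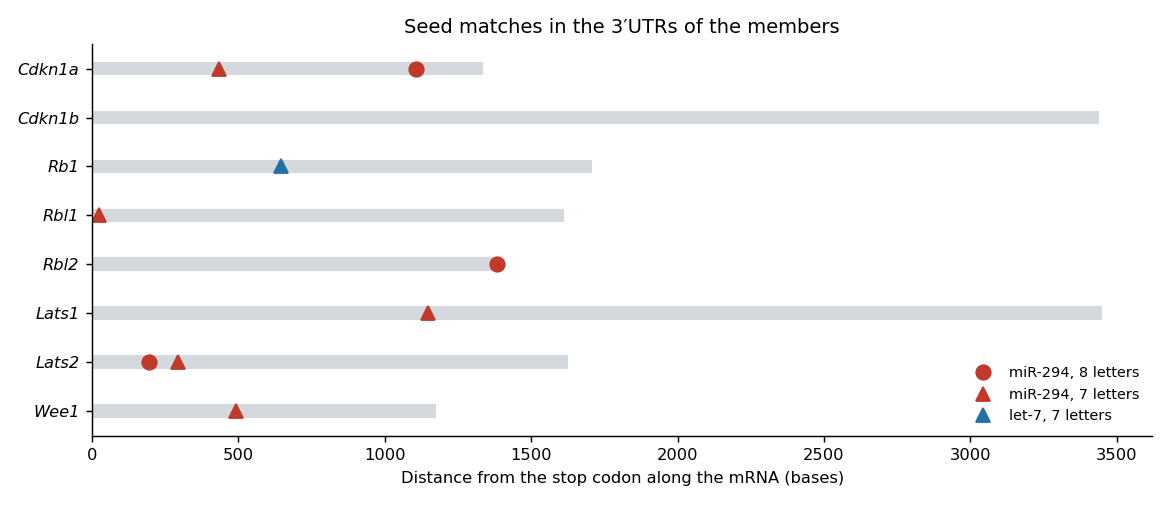
Seed matches along the 3′UTR of each member; grey bars are the 3′UTRs, the x axis is the distance from the stop codon in bases, circles are 8-letter matches and triangles 7-letter matches, red for miR-294 and blue for let-7. The match of Rbl2 begins at base 1384 of a 3′UTR of 1398 bases, that of Rbl1 at base 22, and Cdkn1b shows none.

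On the list of miR-294 targets that the study took from bulk arrays of an earlier experiment were 5 members, Cdkn1a, Rbl1, Rbl2, Lats2 and Wee1, and 3 were not, Cdkn1b, Rb1 and Lats1. None was on the corresponding let-7 list. Per the paper, the genes of both lists were lowered by the miRNA in bulk and also held a seed match in the 3′UTR. Being on a list is therefore not separate from the matches printed above. The bulk lists were also used by the authors to remove 1 miR-294 cell and 5 let-7 cells whose targets were not lower, so that the cells kept were selected on the sum of such genes.

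Each cell had 513521 to 3979274 counts, with condition medians of 1307481 to 1574732, and 6119 to 10877 genes detected. The stem cell markers Pou5f1, Nanog, Sox2, Sall4, Esrrb and Zfp42 were counted in every condition. Their summed level per cell ranged from 331 to 4053 counts per 1000000 counts of the cell (CPM) in mock, 1368 to 5511 in miR-294, 147 to 2836 in let-7 and 1512 to 4230 in WT cells. The median cell was at 2468 CPM in mock, 3279 in miR-294, 942 in let-7 and 2538 in WT, and the level of each of the 6 markers was lower in let-7 than in mock cells, among them Nanog (455 CPM in mock, 139 in let-7) and Sall4 (727 and 145 CPM). Of the markers of fibroblasts, which would come from feeder cells, 3 or 4 of 5 had no count in each condition, and of 3 primitive endoderm markers only Gata4 was counted, at 1.76 CPM in mock, 3.69 in miR-294, 10.3 in let-7 and 0 in WT cells. The part of these marker differences in the values of the members was not tested. Dgcr8, the deleted gene, was at 35.2 CPM in mock, 45.3 in miR-294, 30.7 in let-7 and 118 in WT cells, with a count in all 16 WT cells; its gene count does not separate deleted from remaining exons. Cells of adjacent numbers formed 4 pairs (1 miR-294, 3 let-7) that differed by no more than 2 sequencing runs of the same cell, and may each be 1 cell sequenced under 2 names. In 2 of the 50 cells with 2 runs, 1 let-7 and 1 WT cell, the runs differed from each other far more than in the rest. All were kept, and the larger differences without them are given at the gene. Each condition is 1 sample, so no test is made between conditions: a level is the count of a gene summed over all cells, in CPM of the summed total, with a 95% Poisson interval, a ratio has an exact 95% conditional interval, and a share of cells has an exact (Clopper-Pearson) 95% interval. The intervals of levels and ratios cover counting error only, and those of shares cover the drawing of cells within a chip. Reads are not independent molecules, and chip and condition cannot be told apart.

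Cdkn1a (ENSMUSG00000023067, chr17:29090976-29100727) was by far the most abundant member per length, with a mean of 194 FPKM over mock cells, against 11.3 for Rbl2, 9.07 for Rbl1, 8.30 for Lats2, 6.35 for Rb1, 3.82 for Wee1, 2.87 for Cdkn1b and 2.03 for Lats1. Its summed level was 206 CPM (203 to 208) in mock, 44.5 (43.3 to 45.9) in miR-294, 237 (234 to 241) in let-7 and 44.2 (41.6 to 46.9) in WT cells. The order was thus let-7, mock, miR-294 and WT, and the intervals of miR-294 and WT overlapped.

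Among single mock cells Cdkn1a ranged from 0 to 1204 CPM, with a median of 145. In miR-294 cells the lowest, median and highest values were 0, 24.5 and 251 CPM. In let-7 cells they were 1.53, 155 and 960 CPM, and in WT cells 0, 28.98 and 139 CPM. The ranges of all conditions overlapped, yet 55 of 58 miR-294 cells and 16 of 16 WT cells lay below the mock median, against 21 of 48 let-7 cells. At least 100 CPM was reached by 41 of 60 mock cells, 30 of 48 let-7 cells, 7 of 58 miR-294 cells and 3 of 16 WT cells. Cdkn1a was spread over many cells: the 12 mock cells with most counts held as many of its counts as all others together.

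**Figure D2:**
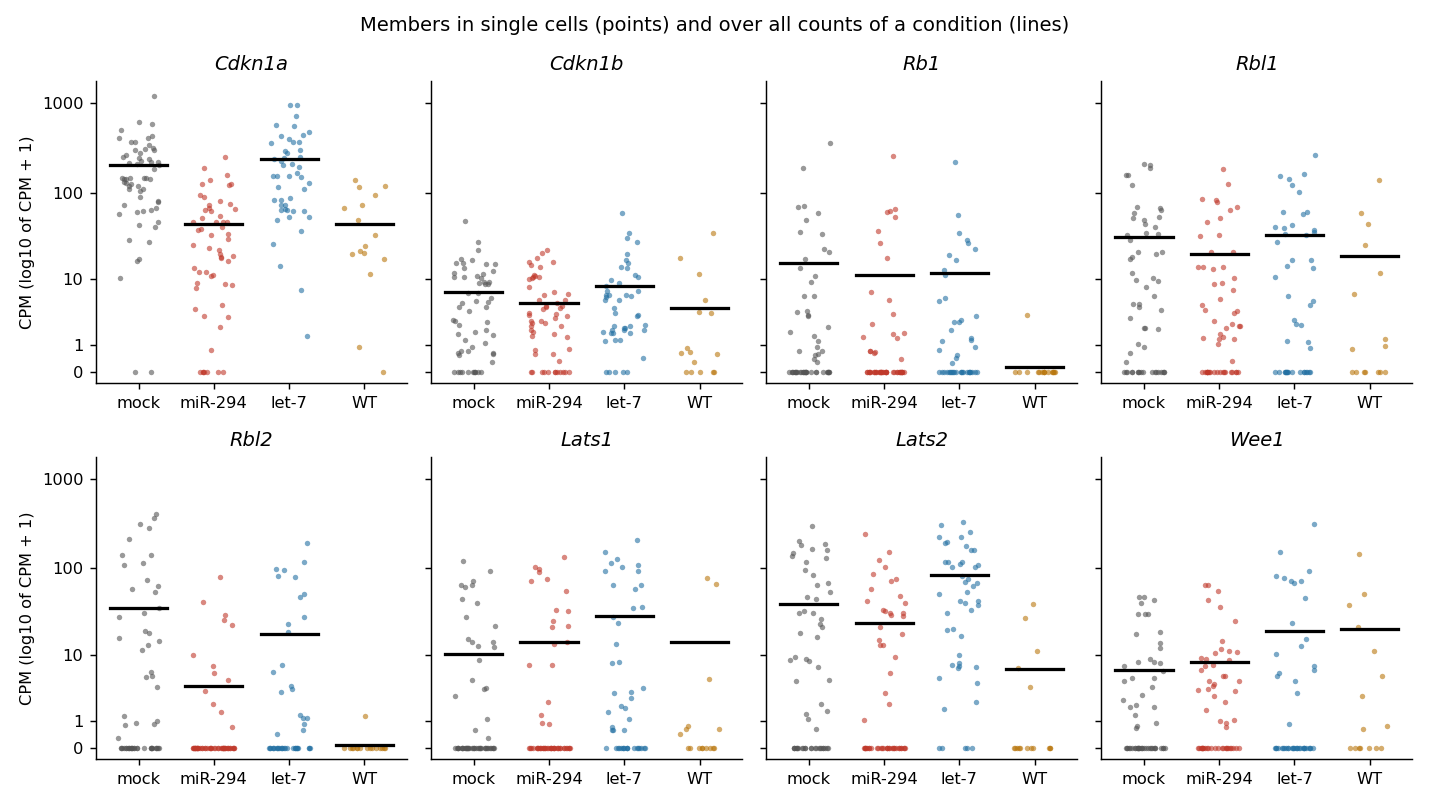
Level of each member in CPM, on an axis of log10 of CPM + 1, by condition; each point is a cell and each black line is the level over all counts of the condition. Cdkn1a had counts in 58 of 60 mock cells and its points lie lower in miR-294 and WT cells, while for Rb1, Rbl2 and Lats1 many cells sit at 0 and a few high cells carry the level.

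The level of Cdkn1a was 4.62-fold lower in miR-294 than in mock cells (4.47 to 4.77), a log2 ratio of -2.21, and 4.66-fold lower in WT than in mock cells (4.38 to 4.95). It was 1.15-fold higher in let-7 than in mock cells (1.13 to 1.18). These comparisons share the mock cells. A cell drawn from the miR-294 condition had a probability of 0.154 of exceeding a mock cell in Cdkn1a, and 7 of the 11186 tested genes had a lower probability, where the median gene was at 0.509. By the ratio of summed counts alone, 3.84% of tested genes were lower. The probability was 0.526 for let-7 and 0.177 for WT cells, below which lay 140 genes. Few genes thus had a probability as low as that of Cdkn1a with miR-294. Genes that shifted upward were not ranked here. A gene without a count in many mock cells cannot reach so low a value, as equal values are shared.

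Cdkn1b (ENSMUSG00000003031, chr6:134920401-134925513), the other inhibitor of this family among the members, was at 6.96 CPM in mock (6.46 to 7.48), 4.93 in miR-294 (4.50 to 5.38), 8.18 in let-7 (7.56 to 8.84) and 4.29 in WT cells (3.51 to 5.20). The median cell had 4.11 CPM in mock, 3.17 in miR-294, 3.94 in let-7 and 0.658 in WT cells, and the highest of all 182 cells 59.5 CPM. It was counted in 81.7% of mock, 79.3% of miR-294, 89.6% of let-7 and 68.8% of WT cells. The miR-294 level was 1.41-fold lower than the mock level (1.26 to 1.59), the WT level 1.62-fold lower, with 40.95% of the WT counts in 1 cell, and the let-7 level 1.18-fold higher. The cells of all conditions overlapped over most of their range, and the probability that a miR-294 cell exceeded a mock cell was 0.464.

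The pocket proteins were counted in fewer cells. Rb1 (ENSMUSG00000022105, chr14:73183673-73325822) was at 15.7 CPM in mock (14.9 to 16.5), 11.2 in miR-294 (10.6 to 11.9) and 11.9 in let-7 cells (11.1 to 12.6). In WT cells it had 4 counts, all in 1 cell, or 0.164 CPM (0.0446 to 0.419). The median cell was at 0.364 CPM in mock, 0.369 in let-7 and 0 in the other conditions, and the highest at 360 in mock, 261 in miR-294, 221 in let-7 and 3.42 in WT cells. In each of the mock, miR-294 and let-7 conditions 2 cells held as many counts as all others together, so these ratios rest on few cells. The level was 1.40-fold lower in miR-294, 1.32-fold lower in let-7 and 95.96-fold lower in WT than in mock cells, the last with an interval of 37.4 to 353. The size of the WT difference depended on the unit, since the log2 ratio was -6.58 by summed counts and -3.07 by mean FPKM.

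Rbl1 (ENSMUSG00000027641, chr2:157145893-157204534) was at 31.4 CPM in mock (30.4 to 32.5), 20.1 in miR-294 (19.2 to 20.95), 32.8 in let-7 (31.5 to 34.1) and 18.7 in WT cells (17.1 to 20.5). The median cell had 5.53 CPM in mock, 2.30 in miR-294, 4.94 in let-7 and 0.897 in WT cells, and the highest cells reached 209, 187, 268 and 140 CPM. A count was seen in 42 of 60 mock, 38 of 58 miR-294, 31 of 48 let-7 and 9 of 16 WT cells. The miR-294 level was 1.57-fold lower than the mock level (1.48 to 1.66) and the WT level 1.68-fold lower (1.52 to 1.86). The WT log2 ratio of -0.75 passed 2-fold with first runs only (-1.77), without the WT cell whose runs disagreed (-1.26) and with size factors (-1.04). The let-7 and mock levels did not differ beyond counting error, with a ratio of 1.04 (0.990 to 1.10).

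Rbl2 (ENSMUSG00000031666, chr8:91070057-91123844), the pocket protein typical of resting cells, had the lowest ratio to mock of all members in miR-294, let-7 and WT cells. It was at 35.4 CPM in mock (34.2 to 36.5), 3.98 in miR-294 (3.60 to 4.39), 17.8 in let-7 (16.9 to 18.8) and 0.0818 in WT cells (0.00990 to 0.295), where it had 2 counts in 1 cell. The highest cell was at 405 CPM in mock, 79.3 in miR-294, 193 in let-7 and 1.27 in WT, while the median cell was at 0.844 in mock and at 0 in the others. It was counted in 32 of 60 mock cells, or 53.3% (40 to 66.3), 13 of 58 miR-294 cells, or 22.4% (12.5 to 35.3), 22 of 48 let-7 cells, or 45.8% (31.4 to 60.8), and 1 of 16 WT cells, or 6.25% (0.158 to 30.2). After each cell was thinned to 500000 counts the shares were 48.3%, 18.97%, 35.4% and 0%, where the 0 of 16 WT cells allows a share of up to 20.6%. The share was thus lower in miR-294 than in mock cells with and without equal depth. The intervals take the cells of a chip as independent and are no test between conditions.

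The level of Rbl2 was 8.89-fold lower in miR-294 than in mock cells (8.02 to 9.88), a log2 ratio of -3.15, below which lay 1.70% of tested genes. The probability that a miR-294 cell exceeded a mock cell was 0.328, and 2.78% of genes had a lower one. The let-7 level was 1.99-fold lower (1.87 to 2.12) and the WT level 432-fold lower, with a counting interval of 120 to 3572. By mean FPKM the log2 ratio was -2.54 with miR-294, against -3.75 with first runs only, and -6.50 in place of -8.76 in WT cells. In mock 5 cells, and in miR-294 3 cells, held as many counts as all others together.

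**Figure D3:**
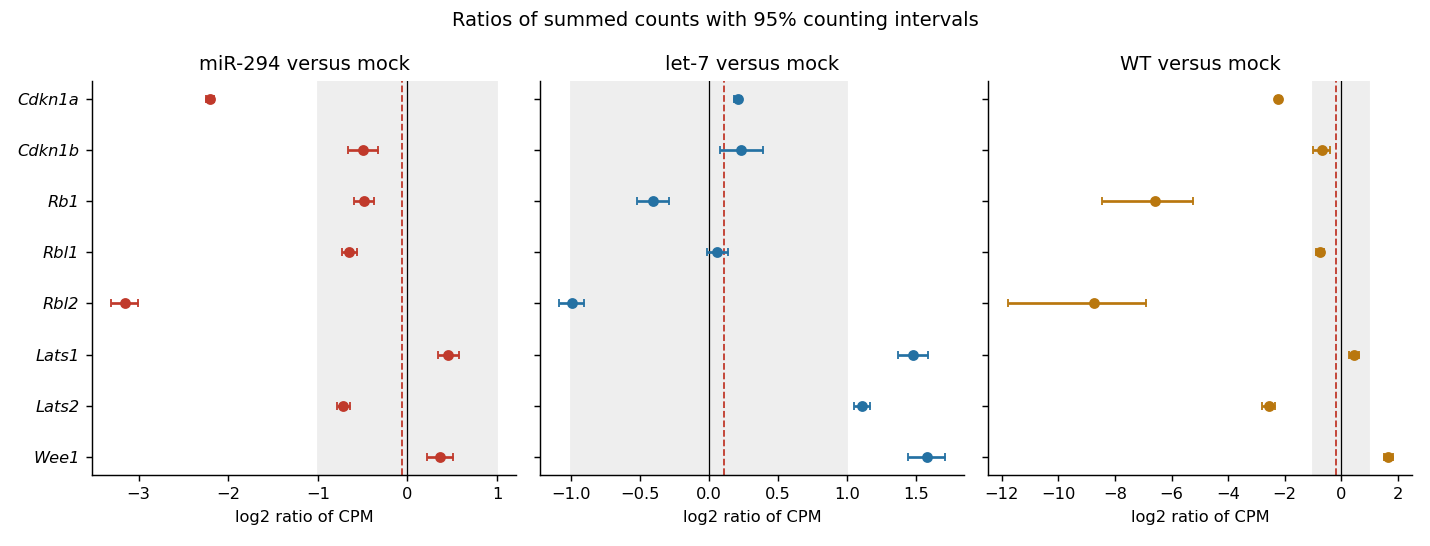
Log2 ratio of the summed CPM of each member in miR-294, let-7 and WT cells over mock cells, with 95% counting intervals; the grey band spans ratios under 2-fold, the dashed line is the median of all tested genes, and each panel has its own x axis. Cdkn1a and Rbl2 lie left of the band in the first panel, Lats1, Lats2 and Wee1 right of it in the second, and Cdkn1a, Rb1, Rbl2 and Lats2 left of it in the third.

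Of the Hippo kinases, Lats2 (ENSMUSG00000021959, chr14:57689662-57758388) was at 39.3 CPM in mock (38.1 to 40.5), 24.0 in miR-294 (23.02 to 24.9), 84.8 in let-7 (82.7 to 86.8) and 6.71 in WT cells (5.72 to 7.81). The median cell was at 5.92 CPM in mock, 47.4 in let-7 and 0 in miR-294 and WT cells, and the highest at 303 in mock, 245 in miR-294, 330 in let-7 and 39.6 in WT. Lats2 was counted in 37 of 60 mock cells, 61.7% (48.2 to 73.9), 27 of 58 miR-294 cells, 46.6% (33.3 to 60.1), 43 of 48 let-7 cells, 89.6% (77.3 to 96.5), and 5 of 16 WT cells, 31.3% (11.02 to 58.7). The let-7 share lay above the others, also after thinning, when it was 89.6% against 56.7% in mock cells.

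The let-7 level of Lats2 was 2.16-fold higher than the mock level (2.07 to 2.24), and a let-7 cell exceeded a mock cell with a probability of 0.688, a value that 96.7% of tested genes fell short of. With size factors, TMM factors, equal weight of cells or thinning, the log2 ratio of 1.11 was 0.94 to 0.98, just under 2-fold, and the summed stem cell markers were lowest in the same condition, whose part was not tested. The miR-294 level was 1.64-fold lower (1.56 to 1.73), with a probability of 0.420, and passed 2-fold with size factors (log2 ratio -1.08). The WT level was 5.86-fold lower (5.02 to 6.90). The WT cell whose runs disagreed held 70.7% of the WT counts, and without it the log2 ratio was -4.14 in place of -2.55. It was -3.93 with first runs only and -3.21 with size factors.

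Lats1 (ENSMUSG00000040021, chr10:7681214-7716460) was at 10.3 CPM in mock (9.67 to 10.9), 14.1 in miR-294 (13.4 to 14.9), 28.6 in let-7 (27.4 to 29.8) and 14.2 in WT cells (12.7 to 15.7). The median cell was at 1.65 CPM in let-7 and at 0 in the other conditions, and the highest at 122 in mock, 133 in miR-294, 209 in let-7 and 78.8 in WT cells. It was counted in 38.3% of mock, 34.5% of miR-294, 62.5% of let-7 and 43.8% of WT cells, and after thinning in 21 in place of 30 of the 48 let-7 cells. The let-7 level was 2.78-fold higher than the mock level (2.58 to 2.99), with a probability of 0.622. The miR-294 level was 1.37-fold higher (1.27 to 1.49) by summed counts. The log2 ratio of 0.46 was 0.24 with equal weight of cells and 0.00 (-0.000906) with size factors, which also average over cells. In WT cells 1 cell held 74.3% of the counts, and without the highest cell of each condition the log2 ratio to mock was -1.12 in place of 0.46. It was also below 0 with size factors (-0.47), equal weight of cells (-0.32), FPKM (-0.10), thinning (-0.48) and first runs (-0.57).

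Wee1 (ENSMUSG00000031016, chr7:110122046-110143286) was at 6.38 CPM in mock (5.91 to 6.89), 8.21 in miR-294 (7.66 to 8.79), 19 in let-7 (18.1 to 20) and 20.3 in WT cells (18.5 to 22.1). The median cell was at 0.333 CPM in mock, 1.37 in miR-294, 0 in let-7 and 0.707 in WT cells, and the highest at 48.1, 64.6, 319 and 144 CPM. A count was seen in 30 of 60 mock, 33 of 58 miR-294, 20 of 48 let-7 and 9 of 16 WT cells. The let-7 level was 2.98-fold higher than the mock level (2.72 to 3.27) although a smaller share of cells had a count, and 4 cells held as many let-7 counts as all others together. The probability that a let-7 cell exceeded a mock cell was 0.502, next to that of the median gene, 0.505. The WT level was 3.18-fold higher (2.82 to 3.57), with 2 cells holding as many counts as the other WT cells together. The log2 ratio of 1.67 was 1.325 with equal weight of cells, 1.00 with size factors and 1.01 without the highest cells. The miR-294 level was 1.29-fold higher (1.16 to 1.43) by summed counts and lower with size factors (log2 ratio -0.18) and with first runs only (-0.04).

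**Figure D4:**
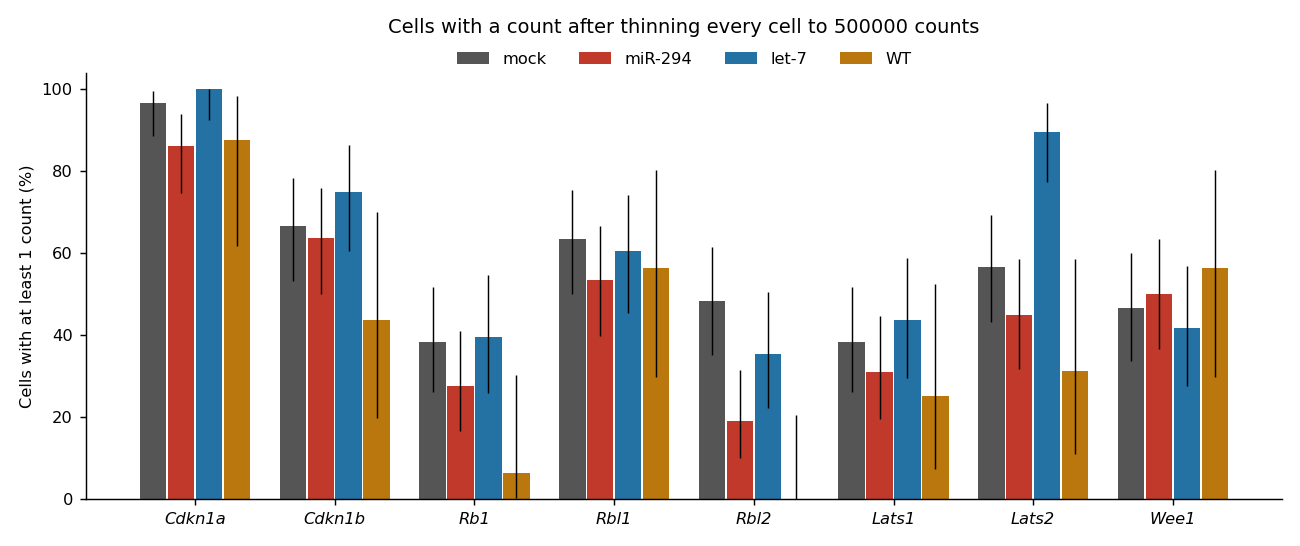
Share of cells, in percent, with at least 1 count of each member after every cell was thinned to 500000 counts, by condition; bars start at 0 and lines are exact 95% intervals. Rbl2 was at 48.3% in mock and 18.97% in miR-294 cells, Lats2 at 56.7% in mock and 89.6% in let-7 cells, and for WT the 16 cells leave wide intervals.

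Counted over the list, 2 of 8 members (Cdkn1a and Rbl2) were at least 2-fold lower in miR-294 than in mock cells, where 15.3% of all tested genes were, and 0 were at least 2-fold higher, against 8.43%. The median log2 ratio of the members was -0.57 and that of all tested genes -0.06. The median was -0.71 for the 5 members on the bulk list and -0.49 for the other 3. In let-7 cells 3 members (Lats1, Lats2 and Wee1) were at least 2-fold higher, against 17.2% of tested genes, and 0 were at least 2-fold lower, against 10.5%, with Rbl2 just short of 2-fold. The median log2 ratio was 0.22 for members and 0.11 for all genes. In WT cells 4 members (Cdkn1a, Rb1, Rbl2 and Lats2) were at least 2-fold lower, against 28.5% of genes, and 1 (Wee1) was at least 2-fold higher, against 12.8%, with medians of -1.48 and -0.19. With a limit of 1.5-fold, 4 members were lower (26.5% of tested genes) and 0 higher (17.7%) with miR-294, 1 lower (18.9%) and 3 higher (28.7%) with let-7, and 6 lower (37.8%) and 1 higher (23.1%) in WT cells. Among the 8403 tested genes whose mock level lay within the range of the members, 16.3% were at least 2-fold lower and 3.94% higher with miR-294, 11.6% and 10.9% with let-7, and 27.9% and 10.7% in WT cells. The 2 of 8 members lower with miR-294 and the 1 of 8 higher in WT cells are thus near the share of all genes. So are the 0 of 8 higher with miR-294 and the 0 of 8 lower with let-7. No count of members was tested against these shares. For comparison, 180 of the 492 tested genes of the bulk miR-294 list were at least 2-fold lower in miR-294 cells and 8 higher, with a median of -0.77.

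Cell cycle phase moved with the conditions. Phases predicted from marker pairs, with the members left out of the pairs, gave 24 G1, 28 S and 8 G2M cells in mock, 11, 28 and 19 in miR-294, 30, 10 and 8 in let-7, and 2, 14 and 0 in WT. Values within a phase are therefore given for the members called above. In WT S cells the log2 ratios to mock were -1.99 for Cdkn1a, -6.97 for Rb1, -7.84 for Rbl2, -2.33 for Lats2 and 1.91 for Wee1. In the 2 WT G1 cells that of Cdkn1a was -1.12, and the other members called in WT had 0 counts. Cdkn1a was lower in miR-294 than in mock cells within every phase, with log2 ratios of -1.58 in G1, -2.05 in S and -3.33 in G2M. In mock cells its level was 198 CPM in G1, 158 in S and 410 in G2M, and in let-7 cells 208, 133 and 410. The level was thus highest in G2M in both conditions, with medians of 274 and 370 CPM. The range of the 8 mock G2M cells, 119 to 1204 CPM, overlapped that of G1 (0 to 501) and S cells (0 to 622). In let-7 cells the highest G1 cell, at 960 CPM, lay above the highest G2M cell, at 732 CPM. In mock, 2297 of the 5362 G2M counts came from 1 cell. In miR-294 cells the G2M level was 40.8 CPM, against 66.1 in G1 and 38.3 in S.

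Rbl2 was also lower in miR-294 than in mock cells in each phase, with log2 ratios of -2.71 in G1, -3.52 in S and -2.82 in G2M. Between let-7 and mock cells its direction changed with phase, from -1.90 in G1 and -1.41 in G2M to 0.79 in S. The let-7 level of Lats2 was above the mock level in G1 (log2 ratio 1.07), S (1.62) and G2M (0.54), and so was that of Lats1 (2.05, 1.66 and 0.98). That of Wee1 was above it in G1 (2.29) and G2M (0.68) and below it in S (-0.48). The G1 value of Lats1 in miR-294 cells, 2.20, and those of Rb1 in G2M, 1.42 in miR-294 and 1.17 in let-7 cells, went against the values over all cells or exceeded them, and came from 4 (Lats1), 5 (Rb1, miR-294) and 4 (Rb1, let-7) cells with a count.

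**Figure D5:**
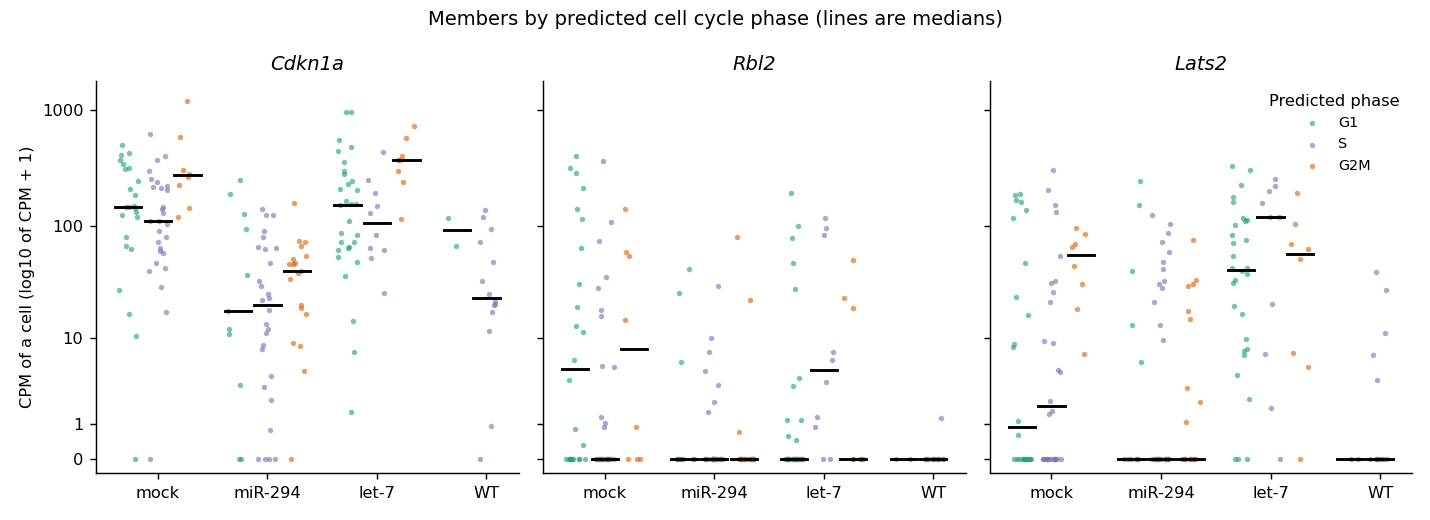
Level of Cdkn1a, Rbl2 and Lats2 in each cell in CPM, on an axis of log10 of CPM + 1, by condition and predicted phase; points are cells, colours are phases, black lines are medians, and WT had no G2M cell. The medians of Cdkn1a lie lower in miR-294 than in mock cells in all phases, and those of Lats2 higher in let-7 than in mock cells in G1 and S.

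The members showed little correlation over cells, in counts too sparse to tell whether they rise and fall together. Some pairs were counted together in few cells, such as Rbl2 and Lats2 in 5 of 58 miR-294 cells. The Spearman correlations of the 28 pairs of members over cells had a median of 0.04 in mock, 0.04 in miR-294, -0.01 in let-7 and -0.03 in WT cells. They ranged from -0.13 to 0.25 in mock, -0.29 to 0.28 in miR-294, -0.31 to 0.39 in let-7 and, over only 16 cells, -0.49 to 0.42 in WT. The median cell had counts of 5 members in mock, 4 in miR-294, 6 in let-7 and 3 in WT cells, and 4, 4, 5 and 3 after thinning. At least 6 members were counted in 23 of 60 mock, 12 of 58 miR-294, 25 of 48 let-7 and 1 of 16 WT cells. All 8 members together were at 351 CPM in mock, 131 in miR-294, 440 in let-7 and 109 in WT cells.

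The genes whose levels over cells were most like those of Cdkn1a, by the Spearman correlation averaged over the 4 conditions among 10753 genes compared, were Cd81 (mean 0.39), Atp6v1f (0.38) and Nanog (0.37). In miR-294 cells the correlations were 0.08, -0.02 and 0.28, and that of Nanog was 0.27 to 0.46 in the other conditions. For Rbl2 they were Hinfp, Capn1 and Eogt, at means of 0.35, and for Lats2 5430416N02Rik, Gm15614 and 2610005L07Rik, at 0.34, 0.33 and 0.33. The values for Rbl2 rest on correlations of 1.00 in WT cells, where a single cell had counts. Those of Atp6v1f (0.85) and of the genes like Lats2 (0.62 to 0.68) were also highest in the 16 WT cells. All of these likenesses are weak, and for Rbl2 and Lats2 the counts are sparse.

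The genes that act with the members were counted by list, with values only for those at least 2-fold different. Of all tested genes, 15.3% were lower and 8.43% higher with miR-294, 10.5% and 17.2% with let-7, and 28.5% and 12.8% in WT cells. The lists are small, and none was tested against these shares. Of the other Cdk inhibitors, 3 of 5 were tested. Cdkn2b, an inhibitor of Cdk4 and Cdk6, was at 8.67 CPM in mock, 0.861 in miR-294, 8.08 in let-7 and 0 in WT cells. Cdkn1c (p57), of the same family as Cdkn1a, was at 7.22 CPM in mock, 1.91 in miR-294, 2.32 in let-7 and 2.66 in WT cells, more than 2-fold lower in all 3 comparisons. With miR-294 and in WT cells 2 of the 3 tested genes were lower each time, these 2, and 0 were higher. Summed over the list, the highest mock cell was at 846 CPM and the median mock cell at 3.08 CPM. The median cell was at 0.656 CPM in miR-294, 4.002 in let-7 and 14.5 in WT, where it was highest. The levels of this list can thus rest on few cells, and the cells behind each gene were not examined.

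Of the 10 cyclins and kinases on which the brakes act, 1 was at least 2-fold lower with miR-294, Ccnd2 (26.8 to 6.41 CPM), and 0 were higher. The D-type cyclin Ccnd1 was just short of 2-fold, at 329 CPM in mock and 166 in miR-294 cells, and more than 2-fold lower in WT cells, at 80.3 CPM. In let-7 cells Ccnd2 (63.5 CPM) and Cdk6 (384 CPM in mock, 811 in let-7) were at least 2-fold higher and 0 were lower. In WT cells Ccnd1, Ccnd2 (1.10 CPM) and Cdk6 (130 CPM) were lower, and Ccne1 (62.3 CPM in mock, 164 in WT) and Ccna2 (59.2 and 170 CPM), cyclins of S phase entry and S phase, were higher.

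Of 13 partners of the pocket proteins, E2f2 was lower with miR-294 (7.15 to 1.96 CPM) and 0 were higher. In let-7 cells E2f2 (1.49 CPM) and E2f6 (8.87 CPM in mock, 2.33 in let-7) were lower and Tfdp2, a dimer partner of E2F factors, was higher (48.8 and 103 CPM). In WT cells 5 were lower, E2f1 (19.2 CPM in mock, 0.613 in WT), E2f2 (2.37 CPM), E2f3 (8.74 and 3.68 CPM), Lin37 (70.3 and 25.96 CPM) and Lin52 (44.99 and 12.4 CPM), and 0 were higher. Lin37 and Lin52 are subunits of the complex in which Rbl1 and Rbl2 silence cell cycle genes.

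In the Hippo pathway 11 of 12 genes were tested. With miR-294, Mob1a, an activator of Lats kinases, was lower (56.6 to 20.04 CPM) and Tead4, a transcription factor bound by Yap1, was higher (6.54 to 13.7 CPM). With let-7, Wwtr1 was higher (36.9 to 77.5 CPM). In WT cells Mob1b was lower (34.2 and 7.03 CPM) and Tead2 higher (16.3 and 50.4 CPM). The remaining tested genes of the list stayed within 2-fold of mock in all 3 comparisons.

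Of the 4 genes that set or remove the inhibitory phosphate on Cdks, Pkmyt1, the kinase related to Wee1, was higher with miR-294 (6.51 to 16.1 CPM). Cdc25b, a phosphatase that opposes Wee1, was lower with miR-294 (34.7 to 13.8 CPM) and in WT cells (4.13 CPM). Cdc25a, its relative at the G1/S step, was lower with let-7 (51.7 to 24.8 CPM), and was at 91.1 CPM in miR-294 cells, under 2-fold. Cdc25c was higher in WT cells (37.8 and 88.1 CPM).

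Of 9 genes that control the turnover and transcription of Cdkn1a and Cdkn1b, Foxo1, a transcription factor of Cdk inhibitors, was lower with miR-294 (59.8 to 26.4 CPM) and in WT cells (24.98 CPM), and Skp2, which marks Cdkn1b for degradation, was lower with let-7 (105 to 35.6 CPM). Trp53, which encodes the activator p53 of Cdkn1a, and Mdm2, another p53 target, were under 2-fold and are named after their values were seen. Trp53 was at 1478 CPM in mock, 1369 in miR-294, 878 in let-7 and 1027 in WT cells. Mdm2 was at 112 CPM in mock, 103.7 in miR-294, 123 in let-7 and 133 in WT cells. The part of either gene in the level of Cdkn1a was not tested.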

How the data were processed

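Single-cell RNA-seq libraries were prepared on the Fluidigm C1, with Nextera XT. The authors aligned and counted reads with RSEM 1.2.19 against Gencode M4 and deposited, for each run, an expected count per gene, without normalization, and an FPKM that takes gene length and depth into account. The genome build is not given in the sources used here, and M21 (GRCm38) gave symbols and coordinates. Per the authors, cells with under 500000 reads or a median count of 0, and capture sites with dead or several cells, had been removed; no doublet caller was run here.

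The runs of each cell (232 runs, 182 cells) were added up and rounded. FPKM values, averaged over runs weighted by their counts, were used to compare genes and as an alternative. Groups followed the genotype and treatment labels, which put 3 cells titled MIR_294 in the miR-294 condition. As no separate cultures are named, cells were not treated as replicates and no test was run; a gene was called at 2-fold. Ratios and the probability that a cell exceeds another (equal values shared) were tested on simulated data. The simulated counts were Poisson with 1 mean per gene in a condition, scaled to the depth of each cell. They lacked the spread between cells of the real counts. Phases were predicted with cyclone in scran 1.30.0 (R 4.3.3), TMM factors came from edgeR 4.0.16, and other steps used scipy 1.17.1, numpy 2.4.6 and pandas 2.3.3 under Python 3.11.15. For each gene the protein-coding transcript with the best APPRIS rank and the longest 3′UTR was used. All members were named in full, genes of their pathways where at least 2-fold different, and the 3 genes most like Cdkn1a, Rbl2 and Lats2. Members and lists were chosen with earlier results of these data known. The alternatives changed scaling, weight of cells, unit, depth, runs, repeated cells, phase, extreme cells, the filter and the fold. The alternative called size factors scaled cells by median-of-ratios factors and then averaged over cells, so it changed scaling and weight of cells together.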

Additional observations from a re-analysis of the deposited data

How the results depend on the processing

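Of the 8 ratios with miR-294, those of Cdkn1a, Rbl1, Rbl2 and Lats2 stayed below mock under all alternatives. Outside the splits by phase Cdkn1a was at log2 ratios of -2.43 to -2.13 and Rbl2 at -3.75 to -2.54. With let-7 the ratios of Cdkn1b, Lats1 and Lats2 kept their sign. In WT cells those of Cdkn1a, Rb1, Rbl1, Rbl2 and Lats2 kept it wherever a ratio could be formed. So did that of Wee1 outside the 2 G1 cells, where it had 0 counts. The number of members at least 2-fold lower with miR-294 was 4 with the 1.5-fold limit and in G1 cells, 3 with size factors and in S or G2M cells, and 2 under the other alternatives, and 1 was at least 2-fold higher in G1 cells and in G2M cells. With let-7, the number lower was 1 in place of 0, Rbl2 except in S cells, where it was Rb1 (-1.99), with the 1.5-fold limit, size factors, TMM, equal weight of cells, FPKM, thinning, first runs, near-identical cells counted once, G1, S or G2M cells, or without the highest cells. The number higher was 2 in place of 3 with size factors, TMM, equal weight of cells or thinning, where Lats2 was lost, and in S cells, where Wee1 was lost. In G2M cells it was 1, Rb1 (1.17), while Lats1 (0.98), Lats2 (0.54) and Wee1 (0.68) were under 2-fold. The let-7 ratio of Wee1 was reversed in S cells, at -0.48. In WT cells 5 in place of 4 members were lower with size factors, first runs or without the cells whose runs disagree (Rbl1 added), 6 with the 1.5-fold limit, in S cells or without the highest cells, and 7, with 0 higher, in the 2 G1 cells. Among all genes with at least 1 count, 24.3% were lower and 20.2% higher with miR-294, 19.9% and 28% with let-7, and 38.2% and 14.7% in WT cells. Size factors moved the median of all genes from -0.06 to -0.28 with miR-294 and from -0.19 to -0.33 in WT cells, and TMM from 0.11 to -0.04 with let-7. The alternative without the cells whose runs disagree was chosen after seeing the data. The causes were not tested. No paired analysis was possible because the repeat numbers in the titles name sequencing runs of 1 cell and no test was made. The 16 WT cells of 1 chip limit what can be said of WT. Their median total, 1307481 counts, was the lowest of the conditions, and that of mock cells, 1574732, the highest.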
